A study of Rattus norvegicus with 10 samples.

Results

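The genes described here are those of the NF-kB pathway in cirrhotic rat liver, with the cytokines, chemokines, receptors and adhesion molecules that signal to it or are known to be induced by it. The list holds 43 genes, of which 41 had a probe set that carries a single gene symbol, among 14217 such genes on the array. Rel and Nfkbie had none and were not analysed here. Where a member had several such probe sets, which was the case for 8 members, the one of highest variance over the 10 arrays was used. Whole livers came from 10 male Wistar rats, all made cirrhotic by inhaled CCl4, a hepatotoxin. Of these, 5 were given CVX-060, an inhibitor of angiopoietin 2 (Ang2), into the tail vein as weekly doses of 10 mg/kg over 4 weeks, and 5 were given vehicle. The 6 hepatocyte genes of a marker list were above background in every rat, with a mean log2 level between 13.91 and 13.94 in CVX-060 rats and between 13.79 and 13.99 in vehicle rats. Each liver was read on its own Affymetrix array, and the values are log2 signals, so that a difference of 1 is a doubling. No healthy liver was used here, and nothing in the sources used here gives the rats' ages or the hour at which each liver was taken.

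NF-kB is a family of dimeric transcription factors that inhibitor proteins hold in the cytoplasm. Signals from toll-like receptors, the interleukin 1 receptor and the tumour necrosis factor receptors lead to the breakdown of these inhibitors, after which the dimers enter the nucleus and bind short κB sites. Among the genes they switch on are cytokines, chemokines, adhesion molecules and the inhibitors themselves, which ends the response. In liver, this programme is known from Kupffer cells, the resident macrophages, from endothelial and stellate cells and from hepatocytes. Since whole liver was measured, a lower signal from fewer cells of a type and one from less RNA per cell cannot be told apart.

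The promoters of 4 members with a κB motif are shown as examples of known NF-kB targets from the inhibitor, chemokine and cytokine groups whose values by rat are given below. The motif searched was GGG, any 2 bases and TTTCC, on both strands, in the 250 bases before each gene's start in RefSeq's table for the GRCr8 build. Of the 41 members, 35 had a promoter in that table, and 9 of these (25.7%) held a match, where 1.3% of all 33465 promoters did. The 9 were Ccl20, Cxcl1, Cxcl2, Il1rn, Il6, Nfkb2, Nfkbia, Nfkbiz and Tnfaip3. The share is a description of these windows for this motif alone, and κB sites of other forms were not searched. Members were listed as NF-kB genes to begin with. The sequences below run 5′ to 3′ on the gene's strand and end at the base before the start, with the matches in capitals. Nfkbia, the gene of the inhibitor IκBα, lies on the minus strand with its window at chr6:78597073-78597322, and the match begins 31 bases before the start. Tnfaip3, which encodes a ubiquitin-editing enzyme that damps NF-kB signalling, has its window at chr1:15543980-15544229 on the minus strand, with matches at 67 and 55 bases. Cxcl1, a neutrophil attractant, has its window at chr14:17479322-17479571 on the minus strand, with matches at 102 and 84 bases. Il6, the cytokine of the acute phase response, has its window at chr4:5894576-5894825 on the minus strand, with a match at 68 bases.
Nfkbia: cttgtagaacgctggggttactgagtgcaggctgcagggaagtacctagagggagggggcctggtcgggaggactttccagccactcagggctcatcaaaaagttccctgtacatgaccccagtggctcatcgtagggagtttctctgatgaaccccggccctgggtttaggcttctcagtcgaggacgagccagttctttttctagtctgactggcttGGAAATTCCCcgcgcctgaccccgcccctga
Tnfaip3: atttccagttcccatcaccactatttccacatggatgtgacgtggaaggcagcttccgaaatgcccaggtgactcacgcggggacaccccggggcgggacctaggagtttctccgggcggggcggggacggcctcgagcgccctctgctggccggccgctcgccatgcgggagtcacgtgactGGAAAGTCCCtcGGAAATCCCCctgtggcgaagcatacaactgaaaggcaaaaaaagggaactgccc
Cxcl1: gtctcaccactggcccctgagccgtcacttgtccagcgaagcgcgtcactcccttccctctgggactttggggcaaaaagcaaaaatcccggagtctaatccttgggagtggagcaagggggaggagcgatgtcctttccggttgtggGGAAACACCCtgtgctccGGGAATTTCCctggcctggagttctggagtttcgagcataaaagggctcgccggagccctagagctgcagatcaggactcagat
Il6: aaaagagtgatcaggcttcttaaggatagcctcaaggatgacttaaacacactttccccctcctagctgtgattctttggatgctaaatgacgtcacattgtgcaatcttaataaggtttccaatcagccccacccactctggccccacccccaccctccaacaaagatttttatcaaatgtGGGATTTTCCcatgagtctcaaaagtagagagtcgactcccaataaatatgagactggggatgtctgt

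Most of the pathway was read above background in these livers, and a part of the receptor and adhesion genes was not. Background was set on each array from 32 probe sets that read receptors of the nose (trace amine, vomeronasal and olfactory receptors), which liver is not known to use. The level was their 95th percentile, and it lay between 5.46 and 5.83. Of the 41 members, 27 were above it in all 10 rats, 8 in some of them and 6 in none, where 55.2% of all genes were above it in all rats and 32.7% in none. The 4 NF-kB subunits measured (Nfkb1, Nfkb2, Rela and Relb) and the 5 inhibitor and feedback genes (Nfkbia, Nfkbiz, Tnfaip3, Tnfaip2 and Socs3, a feedback inhibitor of cytokine signalling through STAT factors) were above background in every rat. So were 5 of 8 cytokines, namely Il1a, Il1b, the interleukin 1 receptor antagonist Il1rn, Il18 and the alarmin Il33. Among 10 chemokines, Ccl3, Ccl21, Cxcl1, Cxcl2, Cxcl16 and Cx3cl1 were above it in every rat. Among 9 receptors and adaptors, those were Il1r1, the interleukin 6 receptor Il6r, the lipopolysaccharide co-receptor Cd14, the adaptor Myd88 and the chemokine receptor Cxcr4. Of the adhesion group, Icam1 and Vcam1, which hold leukocytes on endothelium, were above it in every rat.

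Members below background in every rat were the chemokine Ccl20, the chemokine receptors Ccr1 and Ccr2, the selectins Sele and Selp, and the lipopolysaccharide receptor Tlr4. Their values give no more than an upper bound on the signal of these probe sets. Between them lay 8 members that passed background in some rats. The monocyte attractant Ccl2 passed it in 4 CVX-060 rats and 4 vehicle rats, Ccl4 in 4 CVX-060 rats and 5 vehicle rats, and the lipopeptide receptor Tlr2 in 4 of each group. Tnf, the founding tumour necrosis factor, passed it in 2 CVX-060 rats and 1 vehicle rat, Il6 in 1 CVX-060 rat and 2 vehicle rats, and Ccl7 in 1 of each group. Il10, an anti-inflammatory cytokine, passed it in 3 CVX-060 rats and 1 vehicle rat. The prostaglandin synthase gene Ptgs2 passed it in 1 CVX-060 rat and in no vehicle rat.

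The members varied far more from rat to rat than genes in general. The median member spanned 1.89 log2 units over the 10 rats, where the median of all genes was 0.57. Of the 41 members, 20 (48.8%) spanned more than 2 log2 units, where 3.45% of all genes did. The widest span was that of Ccl2, at 6.11 log2 units or 69.3-fold, followed by Cxcl1 at 4.57, Il6 at 4.39 and Il1b at 4.19. The NF-kB subunits spanned less, with Rela at 0.40 and Nfkb2 at 1.24 log2 units. Myd88 spanned 0.50 and Il18 0.56, about the median of all genes.

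The same pair of rats, CVX-060 rat 2 and vehicle rat 1, held the highest values for 22 of the 41 members (53.7%), where they were the highest pair for 2.95% of all genes. Of these 22, 13 were among the 27 members above background in all rats, where the pair was highest for 2.39% of all genes so measured. Ccr1 and Sele are counted in the 22 but were below background in every rat, so that the order of their values is not relied on. At the 90th percentile of the receptor probe sets, Ccr1 passed in 6 rats and Sele in 0. This pair was noticed after the values were seen and is described with no test. Vehicle rat 1 and vehicle rat 3 were the highest pair for 4 members, where they were for 2.64% of all genes. CVX-060 rat 5 and vehicle rat 2 were so for 4 members as well, where they were for 9.31% of all genes. No other pair had more than 2 members. In CVX-060 rat 2 the median member lay 0.54 above its mean over the rats, and in vehicle rat 1 it lay 0.73 above. In the other CVX-060 rats this median lay between -0.25 and -0.03, and in the other vehicle rats between -0.55 and 0.19. Vehicle rat 5 was at the other end, with the lowest value for 17 of the 41 members, where it was lowest for 10.0% of all genes. On the first principal component of all genes (35.4% of the variance), CVX-060 rat 2 lay at -9.45 and vehicle rat 1 was the lowest array, at -26.2. The arrays that stood apart at the other end were CVX-060 rat 5 and vehicle rat 2, at 35.5 and 34.5, where the highest of the others lay at 9.74.

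**Figure D1:**
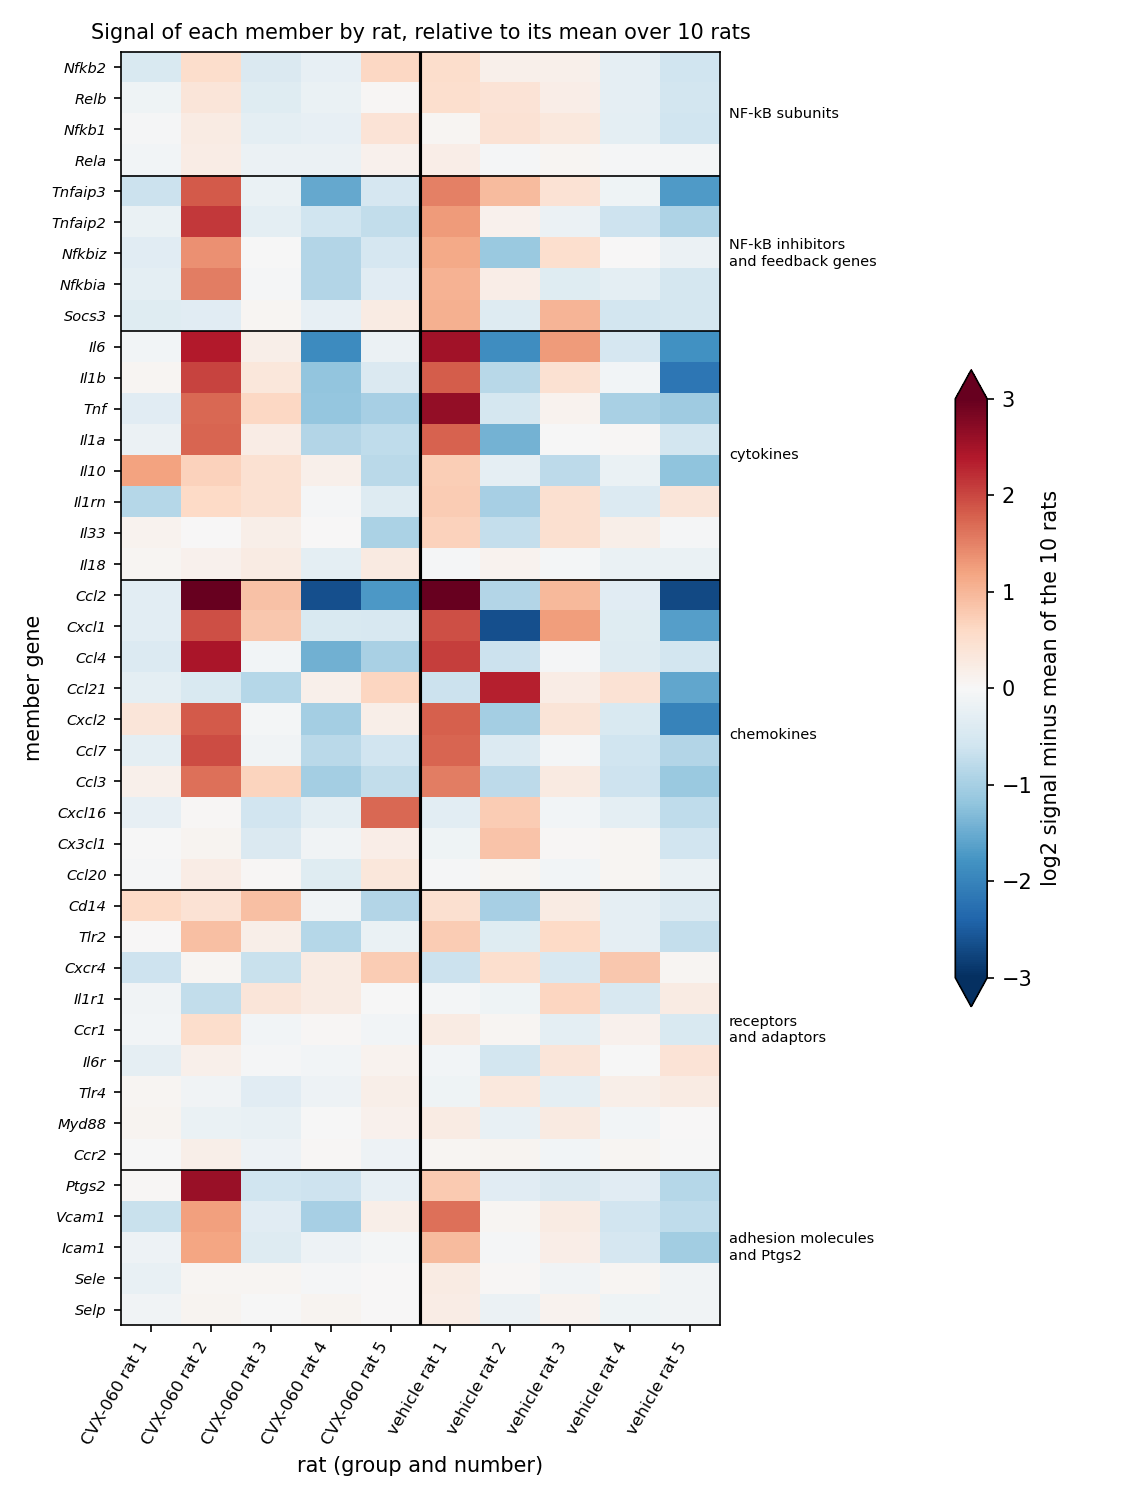
Log2 signal of each of the 41 members (rows, grouped by role) in each rat (columns, CVX-060 left of the line and vehicle right of it), given as the difference from the member's mean over the 10 rats; colours saturate at 3 log2 units either way. CVX-060 rat 2 and vehicle rat 1 are red over most cytokines, chemokines and inhibitor genes, and are the 2 highest rats for 22 of 41 members, 13 of them above background in all rats.

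Among the inhibitor and feedback genes, 4 of 5 were highest in this pair. Nfkbia read 10.96, 12.80, 11.23, 10.39 and 10.91 in CVX-060 rats 1 to 5, against 12.30, 11.45, 10.89, 10.96 and 10.73 in vehicle rats 1 to 5. CVX-060 rat 2 and vehicle rat 1 lay above the rest by 0.85 log2 units, and the groups overlapped. Tnfaip3 read 9.90, 12.40, 10.35, 9.02 and 10.05 in CVX-060 rats, against 12.07, 11.50, 10.98, 10.42 and 8.85 in vehicle rats, and here vehicle rat 2 was high as well. Nfkbiz, a nuclear inhibitor family protein that switches on secondary response genes, read 9.99, 11.72, 10.32, 9.46 and 9.84 in CVX-060 rats, against 11.46, 9.23, 10.85, 10.34 and 10.15 in vehicle rats. A second probe set of Nfkbiz did not show this pattern and stayed between 6.18 and 6.52. Tnfaip2, named for its induction by tumour necrosis factor, read 7.22, 9.53, 7.12, 6.83 and 6.68 in CVX-060 rats, against 8.69, 7.55, 7.25, 6.81 and 6.50 in vehicle rats. Of its 3 other probe sets, 2 were below background in every rat and 1 in all rats but 1. Socs3 was high in vehicle rats 1 and 3, at 7.67 and 7.64, but not in CVX-060 rat 2, at 6.28.

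Of the subunits, Rela alone had this pair on top, with 9.38 in CVX-060 rat 2 and 9.36 in vehicle rat 1 over a next value of 9.30. That gap was 0.06, where the other 8 rats spanned 0.32. Relb, the subunit of the noncanonical pathway, read 7.29, 7.79, 7.06, 7.22 and 7.46 in CVX-060 rats, against 7.94, 7.83, 7.61, 7.17 and 6.87 in vehicle rats. Its high values were those of vehicle rats 1 and 2 with CVX-060 rat 2, close together.

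Of the cytokines, Tnf, Il1a, Il1b, Il1rn and Il6 were highest in the pair. Il1b, the main secreted interleukin 1 of macrophages, read 9.52, 11.48, 9.80, 8.28 and 9.04 in CVX-060 rats, against 11.29, 8.64, 9.92, 9.38 and 7.30 in vehicle rats. Il6 read 5.38, 7.85, 5.64, 3.59 and 5.30 in CVX-060 rats, against 7.98, 3.61, 6.75, 4.96 and 3.65 in vehicle rats. It passed background in the pair and in vehicle rat 3 and nowhere else. Tnf read 4.86, 6.94, 5.83, 4.06 and 4.21 in CVX-060 rats, against 7.85, 4.68, 5.31, 4.24 and 4.14 in vehicle rats. A second probe set of Tnf was below background in every rat. Il1a, the interleukin 1 that is released from damaged cells, read 8.98, 10.89, 9.38, 8.28 and 8.39 in CVX-060 rats, against 10.92, 7.72, 9.14, 9.17 and 8.60 in vehicle rats. The pair stood 1.51 log2 units above the next rat for Il1a and 1.36 above it for Il1b.

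The chemokines held the widest gaps. Ccl2 read 7.82, 11.54, 9.01, 5.50 and 6.40 in CVX-060 rats, against 11.46, 7.24, 9.11, 7.79 and 5.43 in vehicle rats, so that the pair stood 2.35 log2 units above the next rat. Ccl4, which draws T cells and monocytes, read 6.68, 9.55, 7.0, 5.65 and 6.11 in CVX-060 rats, against 9.16, 6.45, 7.04, 6.69 and 6.54 in vehicle rats. Its gap was 2.12 log2 units, and the other rats spanned 1.40 log2 units. Ccl3, a close relative of Ccl4, read 7.73, 9.23, 8.23, 6.56 and 6.82 in CVX-060 rats, against 9.10, 6.78, 7.84, 6.95 and 6.45 in vehicle rats. Ccl7, another monocyte attractant, passed background in the pair alone, at 6.96 in CVX-060 rat 2 and 6.75 in vehicle rat 1. Cxcl1 read 10.93, 13.16, 12.04, 10.77 and 10.76 in CVX-060 rats, against 13.16, 8.59, 12.50, 10.87 and 9.59 in vehicle rats. CVX-060 rat 3 and vehicle rat 3 came next to the pair for Cxcl1, and vehicle rat 2 was lowest. Cxcl2, a second neutrophil attractant, read 10.03, 11.49, 9.61, 8.65 and 9.83 in CVX-060 rats, against 11.45, 8.64, 10.04, 9.19 and 7.65 in vehicle rats.

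Other chemokines followed another order. Ccl21, which guides dendritic cells and T cells along lymphatic vessels, read 8.22, 8.06, 7.65, 8.67 and 9.16 in CVX-060 rats, against 7.85, 10.83, 8.73, 8.94 and 6.95 in vehicle rats. Cxcl16, a membrane-bound attractant of NKT cells, read 7.76, 8.03, 7.44, 7.72 and 9.73 in CVX-060 rats, against 7.69, 8.77, 7.93, 7.70 and 7.25 in vehicle rats. Both had their highest values in CVX-060 rat 5 and vehicle rat 2, the arrays that stood apart over all genes, and this pair was the highest for 9.31% of all genes. Cx3cl1, the other membrane-bound chemokine, was highest in vehicle rat 2 as well, at 7.73 where the others lay between 6.31 and 7.08.

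Of the adhesion group, Icam1 read 9.31, 10.63, 9.06, 9.31 and 9.39 in CVX-060 rats, against 10.42, 9.43, 9.67, 8.96 and 8.41 in vehicle rats. Vcam1 read 6.81, 8.70, 7.13, 6.46 and 7.63 in CVX-060 rats, against 9.11, 7.52, 7.70, 6.88 and 6.70 in vehicle rats. Both had the pair on top, by 0.75 and 1.0 log2 units. Ptgs2, whose product makes prostaglandins in inflamed tissue, read 4.85, 7.41, 4.21, 4.18 and 4.57 in CVX-060 rats, against 5.60, 4.48, 4.38, 4.48 and 3.95 in vehicle rats, and was above background in CVX-060 rat 2 alone. Most receptors spanned less over the rats, with a median of 1.0 log2 units. Il1r1 was lowest in CVX-060 rat 2, at 10.85 where the others lay between 11.10 and 12.21, and Il6r stayed between 10.50 and 11.45. Cd14 read 11.18, 11.01, 11.47, 10.46 and 9.70 in CVX-060 rats, against 11.04, 9.58, 10.81, 10.29 and 10.15 in vehicle rats, with its lowest values in CVX-060 rat 5 and vehicle rat 2. Cxcr4, a homing receptor of lymphocytes, was highest in CVX-060 rat 5 and vehicle rat 4, at 7.42 and 7.47. Tlr2 was highest in the pair, at 7.22 in CVX-060 rat 2 and 7.08 in vehicle rat 1, with vehicle rat 3 close by at 6.92.

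**Figure D2:**
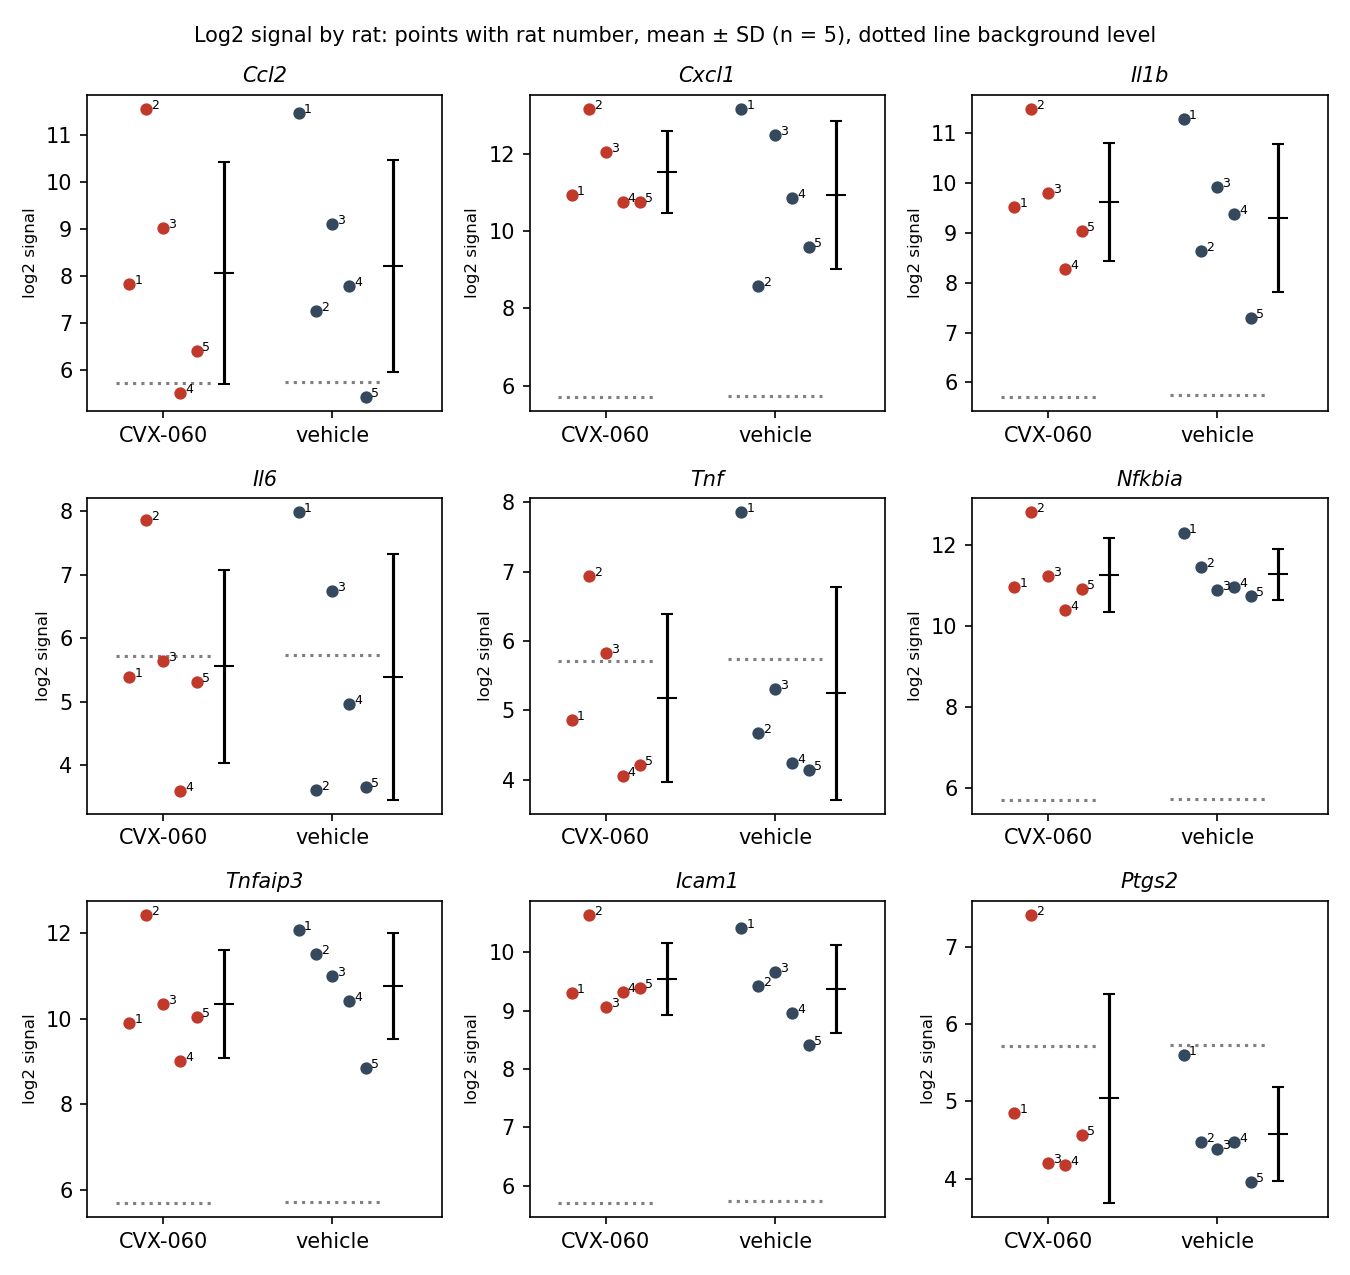
Log2 signal of 9 members in each rat (points with the rat's number, CVX-060 left of vehicle), with group means and SDs (n = 5) and the mean background level as a dotted line. For Ccl2 the highest points are CVX-060 rat 2 at 11.54 and vehicle rat 1 at 11.46, and the groups overlap in every panel.

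Without CVX-060 rat 2 and vehicle rat 1, the members still spanned more than genes in general, with a median of 1.40 log2 units against 0.54 over all genes. Among fixed lists of cell type markers, the neutrophil list had the pair on top for 5 of its 7 genes measured. Over all genes the pair was highest for 2.95%. Of the 5, Camp and Csf3r were below background in every rat, and Mmp8 passed it in 1 rat. Cxcr2, which did not have the pair on top, was below background in every rat as well. These genes were named after their values were seen. The mean log2 level of the neutrophil list lay between 5.40 and 6.94 in CVX-060 rats and between 4.91 and 6.98 in vehicle rats. It was highest in CVX-060 rat 2 and vehicle rat 1. S100a9, a calcium-binding protein abundant in neutrophils and monocytes, read 10.93 in CVX-060 rat 2 and 10.57 in vehicle rat 1, where the others lay between 6.02 and 8.83. Lcn2, a neutrophil granule gene that injured hepatocytes also express, was highest in vehicle rat 2 at 9.94, with 6.32 in CVX-060 rat 2 and 8.46 in vehicle rat 1. Of 15 immediate early genes measured, which respond fast to handling and stress, 5 had the pair on top, and the list's mean level was 9.63 in CVX-060 rat 2 and 9.57 in vehicle rat 1. The other rats lay between 8.13 and 8.85 in the CVX-060 group and between 8.42 and 9.48 in the vehicle group. The part of neutrophils and of immediate early genes in the members' pattern was not tested. The pair was on top for none of the 9 macrophage and Kupffer cell, 7 endothelial, 6 hepatocyte and 8 stellate cell genes measured. It was also on top for none of the 10 T and NK cell, 5 cholangiocyte and 4 B and plasma cell genes. Of these, 7 T and NK cell, 2 cholangiocyte and 3 B and plasma cell genes were below background in every rat. The order of their values is not relied on.

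CVX-060 rats and vehicle rats did not differ in any member beyond the spread between rats. By limma with Benjamini-Hochberg adjustment over all genes, 0 of the 41 members passed an adjusted p of 0.05, as did 0 of all 14217 genes (0.0%). At an unadjusted p of 0.05 limma called 0 members and 2.44% of all genes, and the exact permutation test over 252 splits, which can give no p below 0.0079, called 0 members as well. The differences, CVX-060 minus vehicle, ran between -0.42 and 0.69 log2 units, with 20 members higher and 21 lower, where 52.6% of all genes were higher. Their median was -0.01, and that of all genes 0.01. Values of the groups overlapped for 41 of 41 members, where 0.485% of all genes did not overlap. The SD of the median member was 0.62 within CVX-060 rats and 0.64 within vehicle rats. The members highest in CVX-060 rat 2 and vehicle rat 1 had 1 of their highest rats in each group.

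**Figure D3:**
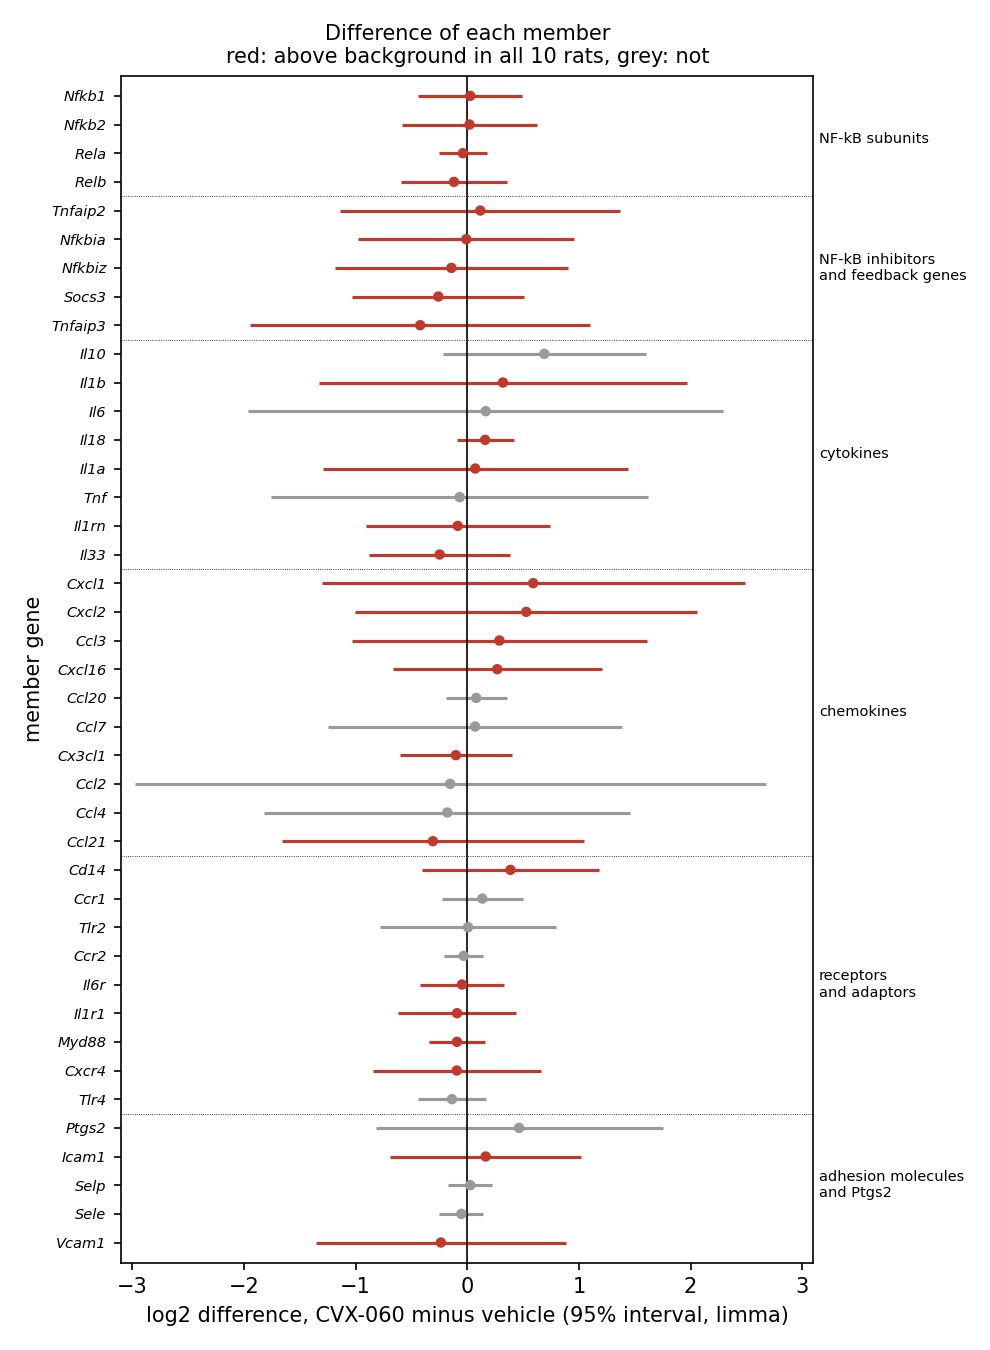
Log2 difference of each of the 41 members, CVX-060 minus vehicle (points), with limma's 95% interval (lines), grouped by role; red members were above background in all 10 rats and grey ones were not. Every interval crosses 0, and the widest is that of Ccl2, between -2.98 and 2.67.

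The subunits had narrower intervals than the inhibitor genes did. Rela averaged 9.14 ± 0.18 in CVX-060 rats and 9.18 ± 0.11 in vehicle rats (SD, n = 5 each), a difference of -0.04 with a 95% interval between -0.25 and 0.18. Nfkb1, the gene of the p50 precursor, averaged 8.88 ± 0.31 in CVX-060 rats and 8.85 ± 0.42 in vehicle rats. Its interval lay between -0.44 and 0.49, and that of Relb between -0.59 and 0.35. Nfkbia averaged 11.26 ± 0.91 in CVX-060 rats and 11.27 ± 0.64 in vehicle rats, with an interval between -0.98 and 0.96. Tnfaip3 had the lowest difference of all members, with 10.34 ± 1.25 in CVX-060 rats and 10.76 ± 1.23 in vehicle rats (-0.42, exact permutation p = 0.587).

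Among the cytokines, Il10 had the largest difference and the smallest p of all members. It read 6.64, 6.12, 5.88, 5.58 and 4.62 in CVX-060 rats, against 6.15, 5.14, 4.65, 5.23 and 4.22 in vehicle rats, and most of these values lie below background. The groups overlapped, and the difference of 0.69 (95% interval between -0.22 and 1.60) had an exact permutation p of 0.183. With each rat left out in turn the difference lay between 0.47 and 0.98, and with the Bmal1 level as a covariate it was 0.30. Il18, an interleukin 1 family cytokine of Kupffer cells and hepatocytes, averaged 7.93 ± 0.23 in CVX-060 rats and 7.77 ± 0.14 in vehicle rats (0.16, interval between -0.10 and 0.42, exact permutation p = 0.198). Il1b averaged 9.63 ± 1.19 in CVX-060 rats and 9.31 ± 1.48 in vehicle rats, with an interval between -1.33 and 1.97. Il33, which is known as a nuclear protein set free by dying cells, averaged 8.49 ± 0.46 in CVX-060 rats and 8.73 ± 0.55 in vehicle rats.

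Of the chemokines, 6 of 10 were higher on average with CVX-060 and 4 lower. Cxcl1 averaged 11.53 ± 1.06 in CVX-060 rats and 10.94 ± 1.92 in vehicle rats, a difference of 0.59 with an exact permutation p of 0.571. Cxcl2 averaged 9.92 ± 1.03 in CVX-060 rats and 9.39 ± 1.44 in vehicle rats (0.53, exact permutation p = 0.5). For Ccl2 the means were 8.05 ± 2.37 in CVX-060 rats and 8.21 ± 2.25 in vehicle rats, so that changes of several fold in either direction lie within its interval. Among the receptors, Cd14 had the highest difference, with 10.76 ± 0.70 in CVX-060 rats and 10.38 ± 0.58 in vehicle rats (0.39, exact permutation p = 0.349). In the adhesion group, Icam1 averaged 9.54 ± 0.62 in CVX-060 rats and 9.38 ± 0.75 in vehicle rats, and Vcam1 averaged 7.35 ± 0.87 in CVX-060 rats and 7.58 ± 0.95 in vehicle rats. Without CVX-060 rat 2 and vehicle rat 1, the difference was -0.21 for Ccl2, -0.61 for Tnfaip3 and 0.87 for Il10, and 6 members changed the sign of a difference that had passed no test. A p that misses the threshold does not show that a gene was equal in the groups. Beside these values, the 9 macrophage and Kupffer cell genes measured were all higher on average with CVX-060 (median 0.27), as were all 7 endothelial genes (median 0.29), and 14 of the 15 immediate early genes were lower (median -0.48). Of these, 2 macrophage, 1 endothelial and 1 immediate early gene stood at an unadjusted limma p under 0.05, and 0 passed an adjusted p of 0.05. Over all genes 52.6% were higher on average with CVX-060, 2.44% stood at an unadjusted limma p under 0.05 and 0 passed an adjusted one. Genes of 1 list were read in the same 10 rats and are not independent. The part of these lists in the members' values was not tested.

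The level of Bmal1, a core transcription factor of the circadian clock that is known to swing widely over the day in liver, fell into separate clusters in these rats. It read 8.38, 8.75, 8.17, 5.75 and 5.21 in CVX-060 rats, against 7.90, 7.95, 5.13, 4.87 and 4.88 in vehicle rats. CVX-060 rats 1 to 3 and vehicle rats 1 and 2 were thus high, and the other 5 rats were below background. With 5 rats in each cluster no correlation with Bmal1 is given. A limma fit with the treatment and the Bmal1 level as terms gave the change of each gene per log2 unit of Bmal1 signal instead. Since Bmal1 was below background in 5 rats, the distance between its clusters may be a lower bound. In these 5 rats Bmal1 lay above the 90th percentile of the receptor probe sets, so that its place below background depends on the percentile chosen. The slopes hold for the signal as read and not for the amount of Bmal1 RNA. In this fit 0 of 41 members passed an adjusted p of 0.05, where 0.366% of all genes did, and the lowest adjusted p of a member was 0.164, that of Il10.

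Slopes were positive for 35 of the 41 members, where they were for 49.7% of all genes, and the median slope was 0.13 for the members and 0.00 for all genes. At an unadjusted limma p under 0.05 stood 9 members (22.0%), all with positive slopes, where 5.73% of all genes had such a positive slope and 6.89% such a negative one. These were Ccl2 (0.94 ± 0.34, SE), Tnf (0.59 ± 0.19), Tnfaip3 (0.53 ± 0.18), Ccl4 (0.52 ± 0.21), Tnfaip2 (0.45 ± 0.14), Ccl3 (0.44 ± 0.16), Ccl7 (0.43 ± 0.16), Il10 (0.35 ± 0.09) and Nfkbia (0.35 ± 0.11). CVX-060 rat 2 and vehicle rat 1, the highest rats for most of them, both lay in the cluster with high Bmal1. Without these 2 rats 4 members (9.76%) stood at an unadjusted p under 0.05, 3 of them with a positive slope, where 4.06% of all genes had such a positive slope and 4.42% such a negative one. In that fit 24 of 41 slopes were positive, where 49.5% were over all genes. Without vehicle rat 1 alone 5 members stood there, all with positive slopes, where 5.16% of all genes had a positive one and 6.35% a negative one. The number was 21 with array weights, 20 of them positive, against 7.85% of all genes with a positive slope and 9.67% with a negative one. Vehicle rat 2, with high Bmal1 and low Il1a, Il6 and Cxcl1, changed the calls when left out, with 21 members at an unadjusted p under 0.05, 20 of them positive (9.03% of all genes positive, 11.9% negative). Past an adjusted p of 0.05 without it, by limma, were Ccl3 (slope 0.63, adjusted p = 0.0349), Tnf (0.81, adjusted p = 0.0411), Il1a (0.57, adjusted p = 0.0463) and Il10 (0.43, adjusted p = 0.0471), where 2.25% of all genes were. Tnf and Il10 were below background in most of these rats.

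**Figure D4:**
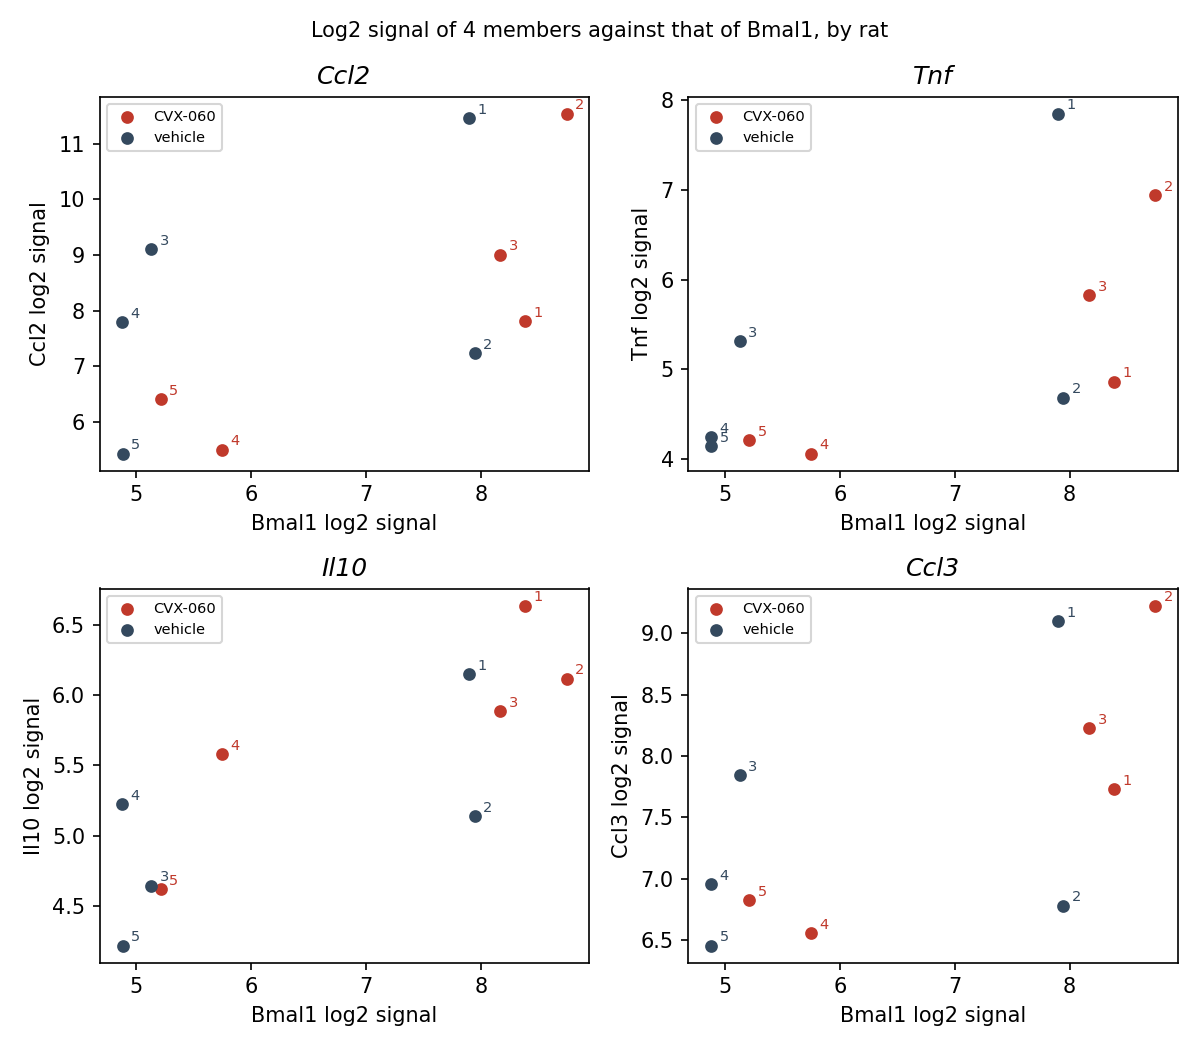
Log2 signal of Ccl2, Tnf, Il10 and Ccl3 in each rat against that of Bmal1 (points with the rat's number, red CVX-060 and dark vehicle). The rats form a cluster with Bmal1 between 4.87 and 5.75 and another between 7.90 and 8.75, and the highest points of Ccl2, Tnf and Ccl3 are CVX-060 rat 2 and vehicle rat 1, both in the cluster with high Bmal1.

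Genes of the pathway outside the member list were set side by side in the same way. Of 47 further NF-kB pathway genes (kinases, adaptors, receptors and targets), 42 were measured, and 0 passed an adjusted p of 0.05 or an unadjusted one by limma. Of the 42, 15 were higher and 27 lower on average with CVX-060 (median -0.02), where 52.6% of all genes were higher. CVX-060 rat 2 and vehicle rat 1 were on top for 10 of the 42, where they were the highest pair for 2.95% of all genes. Some of these 10 were below background in most rats. Of the 42, those with the smallest p were Gadd45b, a stress-induced gene (-0.47), and the interleukin 33 receptor gene Il1rl1 (-0.15, below background in every rat). Next came Nfkbid, an inhibitor family member (0.14). Of 36 further chemokine ligands and receptors, 29 were measured, 0 passed either threshold, and 12 were higher and 17 lower (median -0.02). The pair was on top for 7 of the 29, and some of these 7 were below background in most or all rats. The smallest p values were those of the atypical receptor Ackr4 (0.32), Ccl6 (0.31) and the neutrophil receptor Cxcr1 (-0.23, below background in every rat).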

How the data were processed

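Whole-liver RNA (150 ng) of 10 cirrhotic rats, 5 given CVX-060 and 5 given vehicle, was hybridized to 1 Affymetrix array per rat. The authors deposited log2 signals, already normalized between arrays (array medians 5.52 to 5.57). R 3.4.0, affy 1.56.0 and limma 3.38.2 stand in the submitters' processing notes. Neither how background was corrected and probes summarized nor scan batches are given in the sources used here, and the values were used as deposited.

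Of 31099 probe sets, 57 controls, 436 with several gene symbols and 9780 with none were left out, which left 20826 of 14217 genes, each represented by its probe set of highest variance. Groups came from the treatment labels. CVX-060 was compared with vehicle, and the slope on the Bmal1 level was fitted, with limma 3.58.1 (lmFit, eBayes; R 4.3.3), and p-values were adjusted over all genes by the Benjamini-Hochberg method. Single genes were also tested by a two-sided exact permutation test. Python 3.11.15 with pandas 2.3.3, scipy 1.17.1, numpy 2.4.6 and matplotlib 3.10.9 served for the rest, and the fits were tested on simulated data. Every member with a probe set was named, with Bmal1. Also named were up to 3 genes of each further pathway list, by the smallest p. From each marker list up to 2 were named, by the highest level. The neutrophil genes Camp, Cxcr2, Csf3r and Mmp8 were named after their values were seen. The members and lists were chosen with earlier results of these data known. Precision is limited by there being 10 arrays, and p-values measure the spread between these rats. For its own analysis the paper kept 2 replicates per treatment, after quality control and a principal component plot. All 10 arrays were used here. Promoter sequences are RefSeq's (GRCr8).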

Additional observations from a re-analysis of the deposited data

Results flagged for a closer look

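In 8 of the 84 groups of 5 rats formed by the 41 members and Bmal1, 1 rat lay far outside the range of the other 4 of its group. Chance gives such a rat in about 1 in 20 groups where the groups are independent. These groups share the same 10 rats, so that their number cannot be set against that rate. In 5 of the 8 the rat was CVX-060 rat 2. It read 9.53 for Tnfaip2, where the other CVX-060 rats lay between 6.68 and 7.22, and 10.63 for Icam1, where they lay between 9.06 and 9.39. It read 7.41 for Ptgs2, with the others between 4.18 and 4.85, and 6.96 for Ccl7, with the others between 4.20 and 4.89. Its value for Ccr1 was 5.42, with the others between 4.80 and 4.91, and every value of that gene was below background. CVX-060 rat 5 read 9.73 for Cxcl16, above the 7.44 to 8.03 of the others, and 7.67 for Il33, below their 8.62 to 8.79. Vehicle rat 1 read 9.16 for Ccl4, where the other vehicle rats lay between 6.45 and 7.04.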

How the results depend on the processing

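For CVX-060 minus vehicle, 0 members were called under every alternative run: array weights, array medians set to 0, repeated quantile normalization, leaving out genes below the 40th percentile, the probe set of highest mean in place of highest variance, every probe set, a trended and robust prior, the Bmal1 covariate, leaving out each rat, and leaving out CVX-060 rat 5 with vehicle rat 2 or, added after the data were seen, CVX-060 rat 2 with vehicle rat 1. Between 0 and 13 of the 41 uncalled differences changed sign, most with the Bmal1 covariate. By limma, Il10 reached an unadjusted p of 0.0241 with array weights, 0.035 without CVX-060 rat 5 and vehicle rat 2, 0.0298 without vehicle rat 1, 0.0228 without CVX-060 rat 5 and 0.0032 with a replicate block, and Il18 one of 0.0185 without CVX-060 rat 4, with adjusted p of 0.983 or more in each. The replicate numbers did not pair the rats (correlations of same-numbered deviations between -0.17 and 0.15). With them as a replicate block 0 members were called for CVX-060 minus vehicle and 0 on the Bmal1 level, where 0 of all genes were called as well. In that Bmal1 fit 0 members stood at an unadjusted p under 0.05, where 1.67% of all genes did with a positive slope and 1.46% with a negative one. There 15 of 41 slopes were positive, where 52.4% were over all genes. Without 1 rat, 5 to 21 members stood at an unadjusted p under 0.05 on the Bmal1 level. Over all genes 4.28% to 9.03% did so with a positive slope and 5.02% to 11.9% with a negative one. Without CVX-060 rat 5 and vehicle rat 2 the members numbered 21, all with positive slopes. There 6.27% of all genes had such a positive slope and 7.9% such a negative one. With 1 rat left out, the members called on the Bmal1 level ranged between 0 and 4, and were 0 in the other alternatives. The 4 were those without vehicle rat 2, where 2.25% of all genes were called. Members above background in all rats numbered 30 at the 90th percentile of the receptor probe sets and 21 at the 99th, and 27 to 28 with each rat left out. Signals near background limit Tnf, Il6, Il10, Ccl7 and Ptgs2.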
